A study of Homo sapiens with 10 samples.

Results

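The genes described here are 10 regulators of the G1 phase of the cell cycle: the D-type cyclins *CCND1*, *CCND2* and *CCND3*, the E-type cyclins *CCNE1* and *CCNE2*, the CIP/KIP inhibitors *CDKN1A*, *CDKN1B* and *CDKN1C*, and the INK4 inhibitors *CDKN2B* and *CDKN2C*. They were selected by gene symbol from the 36687 genes of the count and TPM tables, and all 10 are listed there. Dasatinib blocks kinases of the SRC family, and MDA-MB-231 is a human line derived from triple-negative breast cancer that belongs to the basal B class. Wild-type cells of this line received dasatinib at 100 nM, and RNA was sequenced after 6, 12, 24 and 48 h and from untreated cells (0 h), with 2 libraries at each time and 10 in all. The labels call the libraries biological replicates and do not say whether they came from separate cultures, so p-values measure the spread between these samples. The dose comes from the study's text, since the labels give none, and the 0 h samples are titled sham although their treatment field names the drug. Untreated cells of later times were not analysed here, so a difference from 0 h includes time in culture. The cells are of 1 line.

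Progression from G1 into S phase depends on cyclins, which activate cyclin-dependent kinases (CDKs). D-type cyclins pair with CDK4 and CDK6 and respond to growth factor, adhesion and SRC signalling, and E-type cyclins pair with CDK2. Both kinds of complex phosphorylate the retinoblastoma protein, which releases E2F transcription factors and the genes of DNA replication. CIP/KIP proteins (p21, p27 and p57) bind cyclin-CDK complexes widely, with CDK2 as their main inhibited partner, whereas INK4 proteins (p15, p16, p18 and p19) bind CDK4 and CDK6. Many of these proteins are also controlled by degradation, which mRNA levels do not show. MDA-MB-231 cells carry mutant p53 and are known to lack the *CDKN2A* gene.

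Total counts were 40942913 to 49133774 per library. The 5 basal B markers *VIM*, *CD44*, *ZEB1*, *AXL* and *CAV1* were at 1 TPM (relative transcript abundance, scaled by gene length and library) or more in all 10 libraries. Of the 5 luminal markers, *PGR* was at 0 and *ESR1* at or under 0.144 TPM throughout, while *FOXA1*, *GATA3* and *SPDEF* were at 1 TPM or more in all libraries. Leukocyte markers summed to at most 0.145 TPM and endothelial markers to 0.552 to 4.02 TPM. Replicate 1 at 12 h stood apart. Correlated with each other library on log2 CPM (counts scaled by library total), it reached at most 0.955, while each of the other 9 had a partner at 0.983 to 0.987. Mitochondrial mRNAs took 7.94% of its counts, against 4.91 to 7.24% in the other 9 libraries, and ribosomal protein mRNAs 4.24%, against 5.23 to 7.47%.

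Dasatinib-treated cells had more *CDKN1A* mRNA at 6 h, and less *CCNE1* and *CCNE2* and more *CDKN1B* mRNA at 24 and 48 h, than untreated cells. *CCND1*, *CCND3*, *CDKN1C* and *CDKN2C* did not pass the test against 0 h at any time over all libraries. For each of them this changed at some time where a 12 h library was left out. *CCND2* and *CDKN2B* were at or near 0 in all libraries. These 8 expressed members passed edgeR's filter on low counts, as did 15727 genes in all, and were tested with edgeR's quasi-likelihood method at an adjusted p of 0.05. Fold changes are given on the log2 scale with the standard error (SE) of the fit. In bulk RNA a lower level per cell and a smaller share of cells in the phase that expresses a gene cannot be told apart.

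In untreated cells *CCND1* was the most abundant member, at 508 ± 17.1 TPM (SD, n = 2), followed by *CDKN2C* at 86.1 ± 5.71 TPM, *CDKN1B* at 74.8 ± 4.59 TPM and *CDKN1A* at 60.4 ± 6.03 TPM. *CCND3* had 55.4 ± 1.56 TPM, *CCNE1* 22.1 ± 0.245 TPM, *CCNE2* 12.4 ± 0.407 TPM and *CDKN1C* 5.21 ± 1.32 TPM (SD, n = 2 each). Among neighbours in this order, the libraries of *CDKN1A* and *CCND3* overlapped and those of the other neighbours did not.

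**Figure D1:**
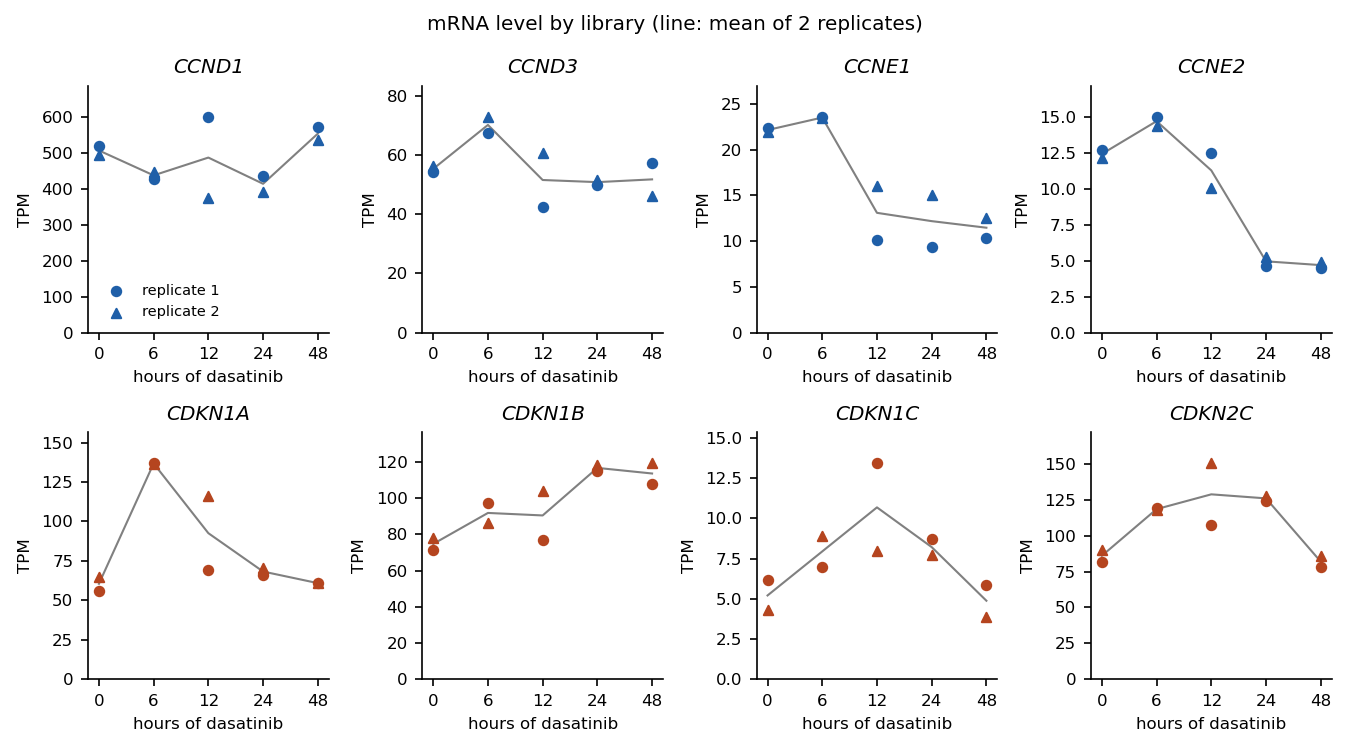
TPM of the 8 expressed members (vertical axis, from 0) against hours of dasatinib, evenly spaced (horizontal axis), with a point per library and a line through the mean of 2 replicates. *CDKN1A* was highest at 6 h (137 TPM in both libraries), and both E-type cyclins were below every 0 h and 6 h library at 24 and 48 h.

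The promoters of *CCNE1*, *CDKN1A* and *CDKN1B*, which passed the test against 0 h, are shown for comparison as the 250 bases before the RefSeq start on GRCh38.p14. The table of promoters held 6 of the 10 members, and *CCNE2*, which also passed, was not among them. Capitals mark matches on either strand to the GC box (GGGCGG) and the CCAAT box (CCAAT). The *CCNE1* window is chr19:29811741-29811990, the *CDKN1A* window chr6:36678464-36678713 and the *CDKN1B* window chr12:12717118-12717367, all on the plus strand.
*CCNE1*: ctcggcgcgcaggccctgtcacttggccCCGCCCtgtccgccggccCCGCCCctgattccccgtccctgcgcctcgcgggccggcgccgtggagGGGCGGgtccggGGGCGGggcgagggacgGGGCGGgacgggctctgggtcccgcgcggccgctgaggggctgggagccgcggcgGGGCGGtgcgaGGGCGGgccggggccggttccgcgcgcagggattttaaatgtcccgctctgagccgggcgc
*CDKN1A*: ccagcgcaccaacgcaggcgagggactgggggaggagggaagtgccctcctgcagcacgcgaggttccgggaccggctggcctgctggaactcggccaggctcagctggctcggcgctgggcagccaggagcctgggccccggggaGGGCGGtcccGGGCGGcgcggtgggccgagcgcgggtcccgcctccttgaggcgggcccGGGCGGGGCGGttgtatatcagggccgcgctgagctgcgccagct
*CDKN1B*: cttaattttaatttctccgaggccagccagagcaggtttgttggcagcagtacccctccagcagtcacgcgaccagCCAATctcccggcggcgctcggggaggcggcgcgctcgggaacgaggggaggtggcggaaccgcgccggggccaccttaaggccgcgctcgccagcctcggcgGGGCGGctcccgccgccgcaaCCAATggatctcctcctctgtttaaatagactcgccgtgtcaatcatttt

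The *CCNE1* window held 7 GC boxes and 0 CCAAT boxes, the *CDKN1A* window 4 GC boxes, 2 of them overlapping, and 0 CCAAT boxes, and the *CDKN1B* window 1 GC box and 2 CCAAT boxes. Of all 35116 windows of this length, 42.6% held a GC box and 32% a CCAAT box. The same search found no E2F motif (TTTNNCGC), FOXO motif (GTAAACA) or E box (CACGTG) in the 3 windows, which says only that these letters are not there. In all windows these were found in 5.92%, 2.98% and 6.34%, in that order. A match is a description of the sequence and not a site of binding.

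*CCND1* encodes cyclin D1, a CDK4 and CDK6 partner and a common target of growth factor signalling (chr11:69641156-69654474, plus strand, GRCh38; its exons overlap *LTO1* on the opposite strand). It had 520 and 495 TPM at 0 h, 429 and 448 at 6 h, 601 and 374 at 12 h, 437 and 392 at 24 h, with 573 and 536 TPM at 48 h. Both 6 h and both 24 h libraries lay below both 0 h libraries, the 48 h libraries lay above them, and the 12 h libraries lay on either side. The differences from 0 h were −0.20 (SE 0.179) at 6 h, −0.17 (SE 0.179) at 12 h, −0.38 (SE 0.179) at 24 h and 0.06 (SE 0.179) at 48 h. None passed the test, with adjusted p of 0.668, 0.577, 0.175 and 0.845 in that order. Without 12 h replicate 1 the 24 h difference was the same size, −0.38 (SE 0.0821), and passed at an adjusted p of 0.000461.

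*CCND3* encodes cyclin D3 (chr6:41934934-42050357, minus strand). It had 54.3 and 56.5 TPM at 0 h, 67.5 and 73.0 at 6 h, 42.6 and 60.6 at 12 h, 50.1 and 51.7 at 24 h, with 57.3 and 46.3 TPM at 48 h. The 6 h libraries were above and the 24 h libraries below both 0 h libraries, and the 12 h and 48 h libraries overlapped with 0 h. At 6 h the difference was 0.35 (SE 0.190) with an adjusted p of 0.418. Without 12 h replicate 1 its size was 0.36, and the call changed. Later differences ran between −0.16 and −0.21, with adjusted p of 0.496 or more. *CCND2*, which encodes cyclin D2 (chr12:4269771-4305353, plus strand), had 0 counts in all 10 libraries. A count of 0 allows up to 3 counts per library, or 0.0611 to 0.0733 CPM, for counting error only. Of the summed TPM of the 3 D-type cyclins, *CCND1* held 86.0 to 93.4% and *CCND3* the remainder in each library.

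Both E-type cyclins passed the test as lower at 24 and 48 h, and both 12 h libraries of *CCNE1* already lay below its 0 h libraries. *CCNE1* encodes cyclin E1 (chr19:29811991-29824312, plus strand, with no exonic overlap in the annotation and 7 GC boxes in its promoter window). It had 22.3 and 21.96 TPM at 0 h, 23.6 and 23.4 at 6 h, 10.1 and 16.1 at 12 h, 9.34 and 15.0 at 24 h, with 10.4 and 12.5 TPM at 48 h. All 6 libraries from 12 h onwards lay below the 4 earlier ones, and the replicates differed most at 12 and 24 h. The difference from 0 h was 0.10 (SE 0.260, adjusted p 0.906) at 6 h and −0.85 (SE 0.264, adjusted p 0.0843) at 12 h. It was −0.96 (SE 0.264, adjusted p 0.0283) at 24 h, or 0.514-fold, and −1.03 (SE 0.265, adjusted p 0.0140) at 48 h, or 0.491-fold. In edgeR fits with each of the 10 libraries left out, the 24 h fold change ranged from −1.30 to −0.68. The call held without 12 h replicate 1, 12 h replicate 2 or 24 h replicate 2, and was lost without any of the others, with adjusted p up to 0.229. At 48 h it was lost without any 0 h or 48 h library, with adjusted p up to 0.113.

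*CCNE2* encodes cyclin E2 (chr8:94879770-94896678, minus strand; its exons overlap *INTS8* on the opposite strand). It had 12.7 and 12.1 TPM at 0 h, 15.0 and 14.4 at 6 h, 12.5 and 10.04 at 12 h, 4.65 and 5.24 at 24 h, with 4.47 and 4.90 TPM at 48 h. The 4 libraries of 24 and 48 h were all below the 6 earlier ones, and 12 h overlapped with 0 h. The difference from 0 h was 0.25 (SE 0.147, adjusted p 0.469) at 6 h and −0.25 (SE 0.148, adjusted p 0.328) at 12 h. It was −1.42 (SE 0.152, adjusted p 0.000271) at 24 h, or 0.375-fold, and −1.48 (SE 0.153, adjusted p 7.75e-05) at 48 h, or 0.359-fold. Both calls held with each library left out, at adjusted p of 0.00724 or less.

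The summed TPM of *CCNE1* and *CCNE2* was 14.0 and 20.3 at 24 h, with 14.8 and 17.4 at 48 h, against 34.99 and 34.07 at 0 h. *CCNE1* made up 66.8 to 74.1% of that sum in the 24 and 48 h libraries, against 63.7 and 64.5% at 0 h.

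Among CIP/KIP inhibitors, *CDKN1A* rose early. It encodes p21, a p53 target and CDK inhibitor that also responds to p53-independent signals (chr6:36676460-36687337, plus strand; its exons overlap the antisense gene *DINOL*, and its promoter window held 4 GC boxes). It had 56.2 and 64.7 TPM at 0 h, 137 and 137 at 6 h, 69.3 and 116 at 12 h, 66.1 and 70.3 at 24 h, with 60.8 and 60.9 TPM at 48 h. The 6 h libraries were above every other library, the 12 h and 24 h libraries were above both 0 h libraries, and the 48 h libraries lay between the 0 h ones. The difference from 0 h was 1.19 (SE 0.219, adjusted p 0.0192) at 6 h, or 2.28-fold. It was 0.53 (SE 0.217, adjusted p 0.170) at 12 h, 0.09 (SE 0.217, adjusted p 0.834) at 24 h and −0.06 (SE 0.217, adjusted p 0.859) at 48 h. With each library left out the 6 h fold change was 1.10 to 1.27. The call was lost without any of the 8 libraries of 0, 6, 24 and 48 h, with adjusted p up to 0.232, and held without either 12 h library, with adjusted p of 2.17e-11 without 12 h replicate 1.

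Over all libraries, *CDKN1B* passed the test against 0 h as higher at 24 and 48 h only. Both of its 6 h libraries already lay above both 0 h libraries, so the start of the rise is not placed. *CDKN1B* encodes p27, a CDK2 inhibitor whose transcription is raised by FOXO factors and whose protein is removed through SKP2 (chr12:12685498-12722369, plus strand, with no exonic overlap and 2 CCAAT boxes in its promoter window). It had 71.5 and 78.0 TPM at 0 h, 97.6 and 86.3 at 6 h, 77.2 and 104 at 12 h, 115 and 119 at 24 h, with 108 and 119 TPM at 48 h. The 6, 24 and 48 h libraries were all above both 0 h libraries, and 12 h overlapped with 0 h. The difference from 0 h was 0.31 (SE 0.158, adjusted p 0.399) at 6 h and 0.18 (SE 0.158, adjusted p 0.507) at 12 h. It was 0.55 (SE 0.158, adjusted p 0.0331) at 24 h, or 1.47-fold, and 0.53 (SE 0.158, adjusted p 0.0271) at 48 h, or 1.45-fold. Both calls held without either 12 h library and were lost without any of the other 8, with adjusted p up to 0.212 at 24 h and 0.170 at 48 h. Fold changes stayed between 0.48 and 0.60 in all of these fits. Against 6 h, the differences of 0.25 at 24 h (adjusted p 0.322) and 0.23 at 48 h (adjusted p 0.310) did not pass.

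*CDKN1C* encodes p57, an imprinted CDK inhibitor (chr11:2883213-2885775, minus strand). It had 6.14 and 4.27 TPM at 0 h, 6.98 and 8.92 at 6 h, 13.4 and 7.95 at 12 h, 8.71 and 7.73 at 24 h, with 5.86 and 3.89 TPM at 48 h. The libraries of 6, 12 and 24 h were all above both 0 h libraries, and 48 h overlapped with 0 h. The differences of 0.62 (SE 0.321), 0.92 (SE 0.321) and 0.57 (SE 0.321) at 6, 12 and 24 h had adjusted p of 0.398, 0.115 and 0.255, and the 48 h difference was −0.16 (SE 0.325, adjusted p 0.750). The replicates of *CDKN1C* differed by 0.24 to 0.65 on the log2 CPM scale over the 5 times.

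**Figure D2:**
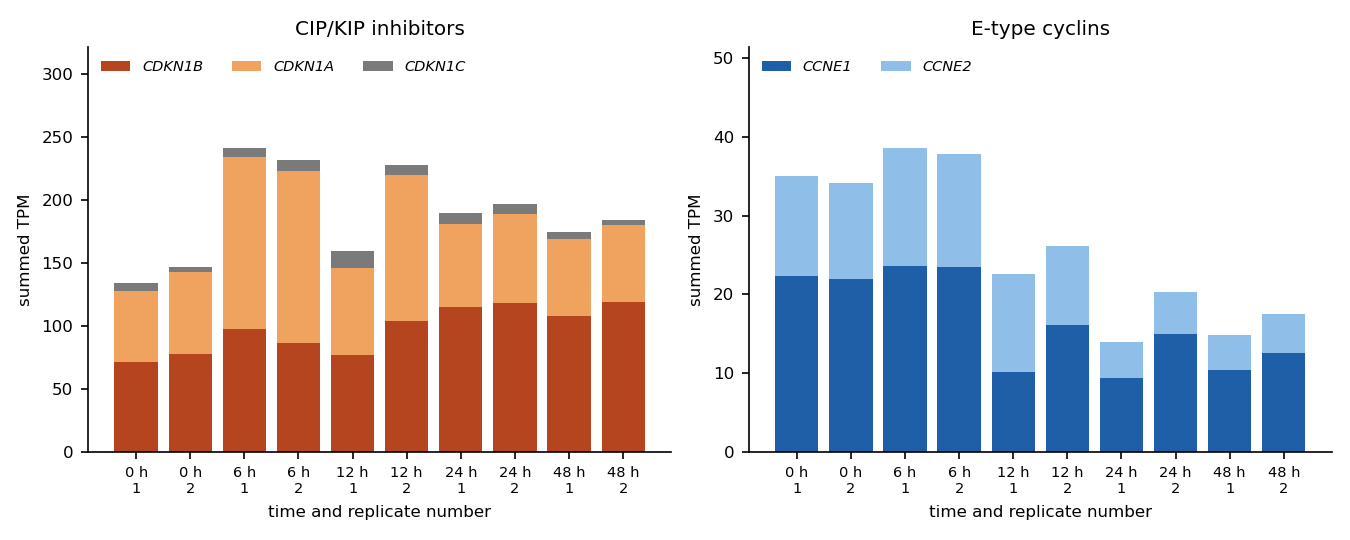
Summed TPM (vertical axis, from 0) of the 3 CIP/KIP inhibitors and of the 2 E-type cyclins in each library, ordered by time and replicate number (horizontal axis), with a colour per gene. *CDKN1A* took 56.7 and 59.0% of the CIP/KIP sum at 6 h, against 41.97 and 44.02% at 0 h, and *CDKN1B* took 60.3 to 64.8% at 24 and 48 h, against 53.4 and 53.1% at 0 h.

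The CIP/KIP sum was 134 and 147 TPM at 0 h, 241 and 232 at 6 h, 160 and 228 at 12 h, 190 and 197 at 24 h, with 175 and 184 TPM at 48 h. Its make-up moved with time. *CDKN1A* made up 56.7 and 59.0% of it at 6 h, against 41.97 and 44.02% at 0 h. *CDKN1B* made up 60.6 and 60.3% at 24 h, with 61.8 and 64.8% at 48 h, against 53.4 and 53.1% at 0 h. *CDKN1C* was at most 8.401% of the sum, in 12 h replicate 1. Per library, *CDKN1B* mRNA was 8.22 and 5.86 times the E-type cyclin sum at 24 h and 7.28 and 6.84 times at 48 h, against 2.04 and 2.29 times at 0 h. These shares and ratios describe mRNA in TPM and were not tested.

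The INK4 inhibitor *CDKN2C* encodes p18 (chr1:50960745-50974634, plus strand). It had 82.1 and 90.2 TPM at 0 h, 120 and 118 at 6 h, 107 and 151 at 12 h, 124 and 128 at 24 h, with 78.3 and 85.8 TPM at 48 h. All 6 libraries of 6, 12 and 24 h were above both 0 h libraries, and the 48 h libraries overlapped with 0 h. The differences were 0.47 (SE 0.166, adjusted p 0.197) at 6 h, 0.49 (SE 0.166, adjusted p 0.107) at 12 h, 0.46 (SE 0.166, adjusted p 0.0795) at 24 h and −0.14 (SE 0.166, adjusted p 0.553) at 48 h. None passed over all libraries. Without 12 h replicate 1 the differences at 6, 12 and 24 h were 0.48, 0.76 and 0.46. The 12 h value then rests on 1 library, and it was 0.15 without 12 h replicate 2 instead.

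*CDKN2B* encodes p15, a CDK4 and CDK6 inhibitor induced by TGF-beta (chr9:22002903-22009305, minus strand). It had 4 counts in 6 h replicate 2, 6 counts in 12 h replicate 2 and 0 counts in the other 8 libraries. These counts are too few for a level or a comparison. Its neighbours on chromosome 9 were also at or near 0. *CDKN2A*, which encodes p16 and ARF, had 0 counts in all libraries, the antisense gene *CDKN2B-AS1* had at most 2 counts and *MTAP* had 4 counts in 1 library and 0 in 9. *MTAP* was chosen after its values were seen.

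**Figure D3:**
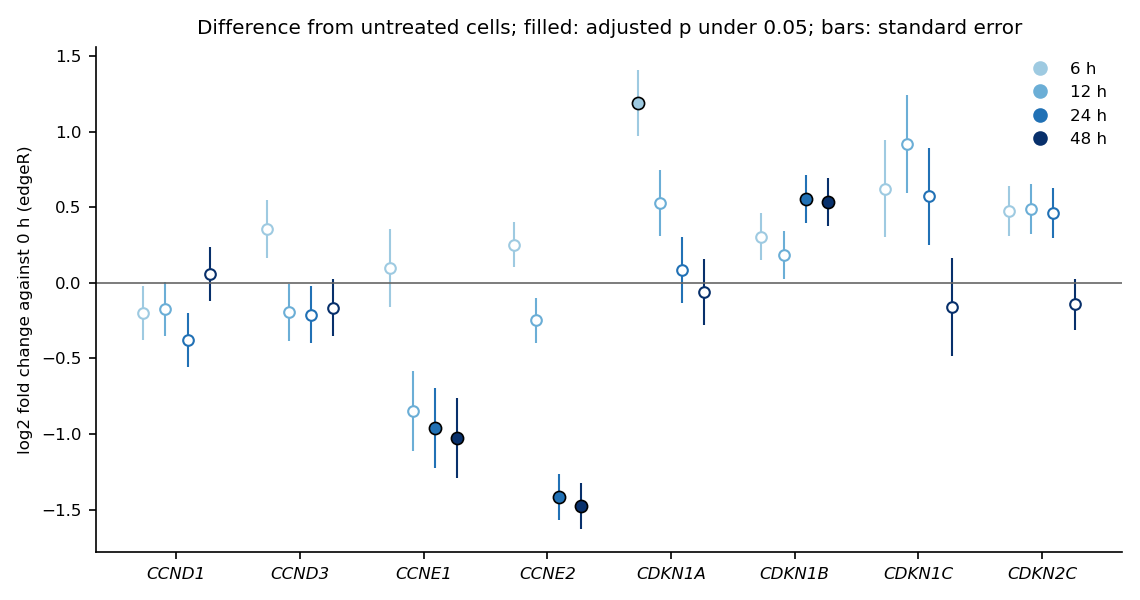
Log2 fold change against 0 h (vertical axis) of the 8 expressed members at 6, 12, 24 and 48 h (shades), with the standard error of the edgeR fit as bars and filled points for an adjusted p under 0.05. The filled points are *CDKN1A* at 6 h and *CCNE1*, *CCNE2* and *CDKN1B* at 24 and 48 h.

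Counted over the 8 tested members, 1 rose and 0 fell at 6 h, beside 1.24% of all 15727 tested genes that rose and 1.49% that fell. At 12 h, 0 rose and 0 fell, beside 3.93% and 3.22% of all genes. There 4 members (*CCNE1*, *CDKN1A*, *CDKN1C* and *CDKN2C*) had an unadjusted p under 0.05, and DESeq2 on all libraries called 2 members. The shares of all genes given here do not apply to the unadjusted and DESeq2 counts. At 24 h, 1 rose and 2 fell, beside 9.73% and 10.2%. At 48 h, 1 rose and 2 fell, beside 16% and 16.3%. The median log2 fold change of the 8 members was 0.33, 0.0038, −0.06 and −0.15 at 6, 12, 24 and 48 h, in that order, and that of all tested genes lay within 0.022 of 0 in every comparison. The comparisons share their 0 h libraries.

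Leaving out either 12 h library added member calls, so the gain was not particular to replicate 1. Either fit holds 1 library at 12 h, and the 12 h differences from 0 h depended on the library kept. Without replicate 1, *CDKN1A* differed by 0.89, *CDKN1B* by 0.43, *CDKN2C* by 0.76 and *CCND1* by −0.48. Without replicate 2 instead, these were 0.03, −0.12, 0.15 and 0.08 in that order. Where 12 h replicate 1 was left out, 16555 genes were tested and more genes passed. At 6 h, 4 members rose (*CCND3*, *CDKN1A*, *CDKN1B* and *CDKN2C*) and 0 fell, beside 9.89% of all genes that rose and 9.47% that fell. At 12 h, 3 rose (*CDKN1A*, *CDKN1B* and *CDKN2C*) and 1 fell (*CCND1*), beside 8.26% and 8.61%. At 24 h, 2 rose (*CDKN1B* and *CDKN2C*) and 3 fell (*CCND1*, *CCNE1* and *CCNE2*), beside 19.5% and 20.8%. At 48 h, 1 rose and 2 fell, beside 24.5% and 26%, the same genes as over all libraries.

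**Figure D4:**
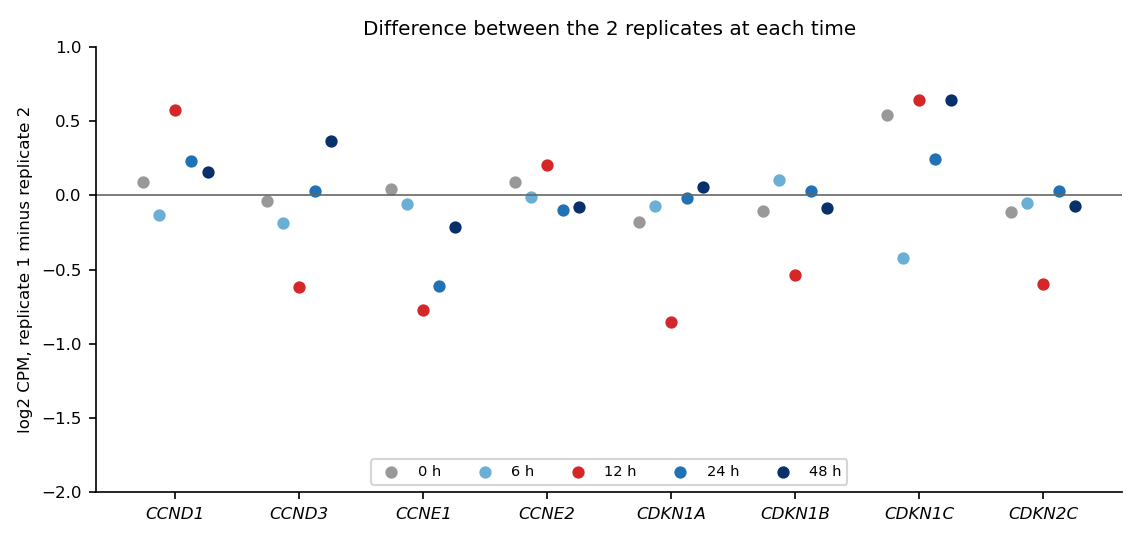
Log2 CPM of replicate 1 minus that of replicate 2 (vertical axis) for the 8 expressed members, with a colour per time. The 12 h points are the farthest from 0 for all 8 members and reach −0.85 for *CDKN1A*.

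The replicates of 12 h differed more in these genes than those of other times. The median absolute difference over the 8 members was 0.606 on the log2 CPM scale at 12 h, against values of 0.0971, 0.0879, 0.0640 and 0.120 at 0, 6, 24 and 48 h, in that order. Replicate 1 at 12 h was lower than replicate 2 for *CDKN1A*, *CCNE1*, *CCND3*, *CDKN2C* and *CDKN1B* and higher for *CDKN1C*, *CCND1* and *CCNE2*. The mitochondrial and ribosomal protein shares of 12 h replicate 1 (7.94% and 4.24%) moved with these values, and their part in them was not tested.

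Differences between treated times were tested too. *CDKN1A* was lower than at 6 h, with a difference of −1.10 (SE 0.218, adjusted p 0.00637) at 24 h and −1.25 (SE 0.219, adjusted p 0.00168) at 48 h. *CCNE1* differed from 6 h by −1.06 (SE 0.264, adjusted p 0.0197) at 24 h and by −1.12 (SE 0.265, adjusted p 0.00885) at 48 h. *CCNE2* differed by −1.67 (SE 0.153, adjusted p 0.000138) and −1.73 (SE 0.153, adjusted p 3.11e-05) in the same comparisons. *CDKN2C* was also lower at 48 h than at 6 h, at −0.62 (SE 0.167, adjusted p 0.0170), and its libraries of these times did not overlap. Against 6 h, 0 members rose and 3 fell at 24 h, beside 9% of all genes that rose and 9.65% that fell. Without 12 h replicate 1, *CDKN1B* rose (0.24, adjusted p 0.0153) and 4 members fell, *CCND3* (−0.57, adjusted p 1.94e-05) with those 3, beside 18.9% and 20.7% of all genes. At 48 h, 0 rose and 4 fell, beside 16.2% and 17%. All 8 members passed there without 12 h replicate 1, beside 24.3% that rose and 26.2% that fell. *CCND1* (0.25, adjusted p 0.0118) and *CDKN1B* (0.22, adjusted p 0.0229) rose, and the other 6 fell. Between 48 and 24 h, 0 rose and 0 fell, beside 1.89% and 1.28% of all genes. DESeq2 on all libraries called 1 member there. The edgeR shares of all genes do not apply to that count or to unadjusted p-values. An unadjusted p under 0.05 was found for *CCND1*, *CDKN1C* and *CDKN2C*, at differences of 0.43, −0.73 and −0.61. Those 3 passed without 12 h replicate 1, 1 higher and 2 lower, beside 10.1% and 11.3% of all genes.

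The genes around these regulators were read from lists of the pathway. *CCNA2*, *E2F1* and *PCNA* each stand in 2 of the lists, so the counts of those lists are not separate. Of all tested genes, 16% rose and 16.3% fell at 48 h. Over all libraries the earlier shares were smaller: 6 h had 1.24% higher and 1.49% lower, 12 h had 3.93% higher and 3.22% lower. The 24 h comparison had 9.73% higher and 10.2% lower. The counts of each list over all libraries stand beside the share of their time. Every list count without 12 h replicate 1 stands beside the larger share printed above for that fit and time. Of 7 G1 CDKs and activators, none rose, and the number that fell was 0, 1, 3 and 4 at 6, 12, 24 and 48 h. Without 12 h replicate 1 it was 2, 3, 5 and 5, beside 9.47%, 8.61%, 20.8% and 26% of all genes. At 48 h the CDK2 phosphatase *CDC25A* fell by 1.84 (adjusted p 3.87e-05), *CDK2* by 1.13 (adjusted p 0.000659), *CDK4* by 1.13 (adjusted p 0.000975) and *CDK6* by 0.81 (adjusted p 0.0231). The CDK-activating kinase genes *CDK7*, *CCNH* and *MNAT1* differed from 0 h at 48 h by 0.06, −0.21 and −0.30, with adjusted p of 0.864, 0.338 and 0.182. The INK4 inhibitor *CDKN2D*, which encodes p19, did not pass over all libraries, with −0.43 (SE 0.283, adjusted p 0.278) at 48 h, and passed there without 12 h replicate 1 (−0.43, adjusted p 0.0316). *CDK2* and *CDK4* had also fallen at 24 h, and *CDK6*, at −0.73, had an adjusted p of 0.0518 there.

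Of 8 pocket protein and E2F genes, 0 passed at 6 and 12 h, 1 rose and 4 fell at 24 h, and 1 rose and 5 fell at 48 h, beside 16% and 16.3% of all genes. The fit without 12 h replicate 1 had 1, 0, 1 and 2 that rose and 1, 2, 6 and 6 that fell at 6, 12, 24 and 48 h. Over all libraries the gene that rose was *RBL2*, which encodes p130, a pocket protein of resting cells, by 0.83 (SE 0.175, adjusted p 0.00512) at 48 h. *E2F2* fell by 1.93 (adjusted p 4.44e-05), *E2F1* by 0.96 (adjusted p 0.000272), *RBL1* by 0.89 (adjusted p 0.0116), *E2F4* by 0.74 (adjusted p 0.00180) and *E2F3* by 0.47 (adjusted p 0.0168). *RB1* differed by −0.28 (adjusted p 0.223) and *E2F5* by 0.43 (adjusted p 0.0846). At 6 h *E2F1* was 0.53 above 0 h with an adjusted p of 0.0505.

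Of 18 E2F target genes of S phase entry, a list that holds *CCNE1*, *CCNE2*, *CCNA2*, *E2F1* and *PCNA*, 0 passed at 6 h, 1 fell at 12 h, and 18 fell at both 24 and 48 h, beside 10.2% and 16.3% of all genes. Their median difference from 0 h was 0.17, −0.11, −0.94 and −1.40 at 6, 12, 24 and 48 h, in that order. At 48 h the nucleotide reductase gene *RRM2* fell by 2.19 (adjusted p 3.46e-06), *CCNA2* by 1.82 (adjusted p 4.71e-06) and the transcription factor *MYBL2* by 1.82 (adjusted p 7.03e-06). Without 12 h replicate 1, 7 of the 18 passed as higher at 6 h, 1 fell at 12 h and 18 fell at 24 and 48 h. Of 5 S, G2 and M phase genes, 4 fell at 24 h and 5 at 48 h, where *CCNB1* fell by 1.57 (adjusted p 7.54e-06), *CDK1* by 1.55 (adjusted p 2.30e-05), *CCNB2* by 1.39 (adjusted p 0.000153) and *CCNF* by 1.38 (adjusted p 2.02e-05). Of 3 proliferation markers, 2 fell at 24 h and 3 at 48 h, where *MKI67* fell by 1.44 (adjusted p 9.83e-05), *TOP2A* by 1.16 (adjusted p 0.000605) and *PCNA* by 1.04 (adjusted p 0.000907). In a fit without 12 h replicate 1, 1 S, G2 and M phase gene rose and 1 fell at 6 h and 1 rose at 12 h, 1 proliferation marker rose at 6 h, and all genes of both lists fell at 24 and 48 h.

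Of 14 genes of the ubiquitin ligases that act on these proteins, 0 passed at 6 and 12 h, and 1 rose and 5 fell at both 24 and 48 h, beside 16% and 16.3% of all genes at 48 h. With 12 h replicate 1 left out, 1, 0, 2 and 3 rose and 1, 3, 6 and 8 fell at 6, 12, 24 and 48 h. At 48 h the p27 ligase subunit *SKP2* fell by 1.20 (adjusted p 0.000258), its cofactor *CKS1B* by 1.80 (adjusted p 0.000115) and the p21 ligase subunit *DTL* by 1.21 (adjusted p 0.000367). Of 20 p53 targets, a list that holds *CDKN1A*, 2 rose at 6 h, 2 rose and 1 fell at 12 h, 3 rose and 1 fell at 24 h, and 4 rose and 3 fell at 48 h, beside 16% and 16.3% of all genes. When 12 h replicate 1 was left out, 5, 4, 7 and 7 rose and 3, 3, 4 and 5 fell at 6, 12, 24 and 48 h. At 48 h the death receptor gene *TNFRSF10B* was higher by 1.31 (adjusted p 3.91e-05), the stress cytokine gene *GDF15* by 3.62 (adjusted p 0.000825), and the nuclease gene *AEN* fell by 1.32 (adjusted p 0.000177).

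Of 10 transcription factors known to act on these genes, 1 fell at 6 h, 3 rose and 3 fell at 12 h, 2 rose and 3 fell at 24 h, and 1 rose and 3 fell at 48 h, beside 16% and 16.3% of all genes. In the fit that omitted 12 h replicate 1, 2, 3, 3 and 4 rose and 5, 4, 4 and 3 fell at these times. *FOXO4* rose by 1.13 (adjusted p 0.0132) at 12 h, 1.71 (adjusted p 0.000541) at 24 h and 1.98 (adjusted p 9.43e-05) at 48 h. The mean TPM of *FOXO3* was 20.1 at 0 h, 13.9 at 6 h and 20.5 at 48 h. That of *FOXO1* was 9.08, 13.1 and 14.3 at these times. *KLF6*, which activates *CDKN1A* in other settings, fell by 0.99 (adjusted p 0.00143) at 6 h and 0.51 (adjusted p 0.00503) at 48 h, and *TP73*, a p53 relative, fell by 1.40 (adjusted p 0.00276) at 48 h. Of 9 further genes (8 other cyclins and *CCNDBP1*, which encodes a cyclin D binding protein), 0 passed at 6 h, 1 rose at 12 h, 3 at 24 h and 2 at 48 h, beside 16% of all genes at 48 h, and none fell over all libraries. Once 12 h replicate 1 was omitted, 1 rose and 2 fell at both 6 and 12 h, 4 rose at 24 h, and 4 rose and 2 fell at 48 h. *CCNG2*, a cyclin found in resting cells, was higher by 1.68 (adjusted p 8.37e-06) and *CCNDBP1* by 1.03 (adjusted p 0.000249) at 48 h, and *CCNG1* differed by 0.36 (adjusted p 0.0853).

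**Figure D5:**
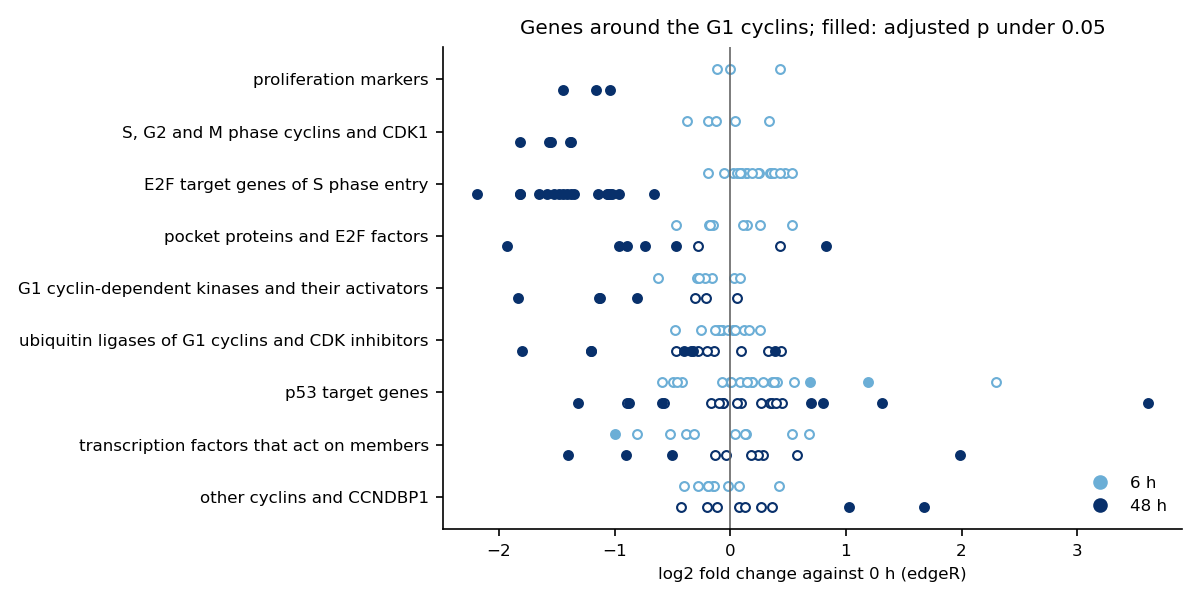
Log2 fold change against 0 h (horizontal axis) of each tested gene of 9 lists (rows) at 6 h and 48 h, with filled points for an edgeR adjusted p under 0.05. At 48 h all 18 E2F targets, all 5 S, G2 and M phase genes and all 3 proliferation markers lie left of 0, and at 6 h none of these is filled. *CCNA2* and *PCNA* are drawn in 2 of these rows each.

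The genes whose profile was most like that of each member were found among 10981 genes by Pearson correlation of log2 CPM over the 10 libraries, which share times and depth. *CCNE2* was closest to *CDC6* (r = 0.988) and *CLSPN* (r = 0.988), both genes of DNA replication. *CCNE1* was closest to *HES4* (r = 0.991) and *EIF2B5* (r = 0.982), *CDKN1A* to *GPAT3* (r = 0.971) and *PIAS4* (r = 0.965), and *CDKN1B* to *MORN4* (r = 0.979) and *ANAPC16* (r = 0.977). *CCND1* was closest to *ADAM9* (r = 0.955) and *YWHAG* (r = 0.951), and *CCND3* to *BID* (r = 0.964) and *CNPPD1* (r = 0.957). *CDKN2C* was closest to *IMPA2* (r = 0.968) and *MXD3* (r = 0.957). *CDKN1C* was closest to *MTATP6P1* (r = 0.943), a nuclear copy of a mitochondrial gene, and *MAP3K11* (r = 0.936). Of the 10 libraries, 12 h replicate 1 had the highest *CDKN1C* level (13.4 TPM) and the highest mitochondrial share (7.94%). The part of that library in this match was not tested. No p-value is given for these correlations, which were ranked over all genes.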

How the data were processed

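RNA of MDA-MB-231 cells was sequenced from 10 libraries, 2 per time, with an NEBNext Ultra RNA kit. Per the study's methods and processing notes, Trim Galore, STAR 2.5.2b on hg38 and featureCounts 1.6.0 were used by the authors for trimming, alignment and counting. Raw counts and TPM values were deposited by the authors, with 36687 symbols in each table. The step to TPM, the annotation and the strand setting are not given in the sources used here, so reads of antisense or overlapping genes could not be separated. The ratio of count to TPM, scaled per library, is fixed per gene.

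The counts were tested in R 4.3.3 with edgeR 4.0.16: filter on low counts by group, TMM scaling, 1 robust quasi-likelihood fit over 5 groups, and Benjamini-Hochberg adjustment over 15727 genes at a threshold of 0.05. The SE is the fold change divided by the root of F. The edgeR step was tested on simulated data. Alternatives were no filter, median-ratio size factors, DESeq2 1.42.0 (the study's tool) on all libraries or on 2 groups, edgeR on 2 groups, the replicate number as a block, limma 3.58.1 on log2(TPM + 1) or log2(TPM + 0.1) with 1 TPM in 2 libraries as the filter or with none, an adjusted p of 0.01, and each library left out. A group with a library left out holds 1 sample, assumed to vary like the others. Fits without both 12 h libraries, and list counts without 12 h replicate 1, were added after the data were seen.

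Samples were grouped by their labels. The members, lists and tests were chosen with earlier results of these data known. The text names all 10 members, every gene of lists of 8 or fewer, the 3 genes of each longer list with the smallest adjusted p at 48 h, and for each member the 2 genes of average log2 CPM 2 or more with the highest correlation. *CDKN2A* belongs to the INK4 list, values at other times were chosen after they were seen, and *MTAP*, *CDKN2B-AS1*, *FOXO1* and *FOXO3* fall outside this rule. Gene coordinates come from GENCODE on GRCh38 and promoters from RefSeq. Totals were 40942913 to 49133774 counts per library, and the SE of the fit gives the precision of each fold change.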

Additional observations from a re-analysis of the deposited data

Results flagged for a closer look

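The difference between treated times was itself tested, and 7 of these tests passed with edgeR's quasi-likelihood test and adjustment over all genes. *CDKN1A* differed from its 6 h level by −1.10 at 24 h (adjusted p 0.00637) and by −1.25 at 48 h (adjusted p 0.00168), on the log2 scale, after being above 0 h at 6 h. *CCNE1* differed from its 6 h level by −1.06 at 24 h (adjusted p 0.0197) and −1.12 at 48 h (adjusted p 0.00885). *CCNE2* differed from its 6 h level by −1.67 at 24 h (adjusted p 0.000138) and −1.73 at 48 h (adjusted p 3.11e-05). *CDKN2C* differed from its 6 h level by −0.62 at 48 h (adjusted p 0.0170). In each case both later libraries lay below both 6 h libraries. With each library left out, the *CCNE2* calls and the 48 h call of *CDKN1A* held. The 24 h call of *CDKN1A* was lost without 6 h replicate 2, 24 h replicate 1 or 24 h replicate 2, with adjusted p up to 0.0671. The *CCNE1* calls were lost at 24 h without 6 h replicate 1, 6 h replicate 2 or 24 h replicate 1, with adjusted p up to 0.185, and at 48 h without 6 h replicate 2 or 48 h replicate 1, with adjusted p up to 0.0805. The *CDKN2C* call was lost without any 6 h or 48 h library, with adjusted p up to 0.114. No group holds 4 or more libraries, so single libraries were not tested as outliers.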

How the results depend on the processing

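Of 1112 member fold changes under the alternatives, 937 kept direction and side of the threshold, 98 passed where they had not, 52 no longer passed and 25 changed sign. *CCNE2* passed at 24 and 48 h against 0 h in every alternative run. Counts of members that passed, over all libraries, follow, without the share of all genes that passed in each fit. They therefore do not show whether members passed more often than other genes. An alternative whose count was equal or close to that of the main fit is not listed. At 6 h against 0 h (1 member) the count was 2 with no filter, 5 with DESeq2 on 2 groups, 4 with edgeR on 2 groups, 0 with limma without a filter, 0 at an adjusted p of 0.01, 4 without the 12 h group, and 0 to 4 with a library left out. At 12 h against 0 h (0) it was 4 with no filter, 2 with DESeq2 on all libraries, 1 with the replicate block (*CCNE1*, adjusted p 0.0436) and 0 to 4 with a library left out. At 24 h against 0 h (3) it was 6 with DESeq2 or edgeR on 2 groups, 1 at an adjusted p of 0.01, 5 without the 12 h group and 1 to 5 with a library left out. At 48 h against 0 h (3) it was 1 at an adjusted p of 0.01 and 1 to 3 with a library left out. At 24 h against 6 h (3) it was 5 in both fits of 2 groups, 5 without the 12 h group and 1 to 5 with a library left out. At 48 h against 6 h (4) it was 8 in both fits of 2 groups, 8 without the 12 h group and 2 to 8 with a library left out. At 48 h against 24 h (0) it was 1 with no filter, 1 with DESeq2 on all libraries, 2 with DESeq2 and 3 with edgeR on 2 groups, 3 without the 12 h group and 0 to 3 with a library left out. Over the 7 comparisons limma without a filter lost 5 calls and gained 0: *CDKN1A* at 6 h, *CCNE1* at 24 and 48 h against 0 h and at 24 h against 6 h, and *CDKN2C* at 48 h against 6 h. Leaving out the filter gained 10 calls and DESeq2 on all libraries 6, and neither lost one. The cause was not tested, beyond the fewer samples of some fits.

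Sign changes fell on differences that did not pass. With limma on log2(TPM + 1), with and without the filter, and log2(TPM + 0.1), *CDKN1A* at 48 h against 0 h was 0.0133 and 0.0135, *CDKN1C* at 24 h against 6 h was 0.0493 and 0.0556, and *CDKN2C* at 24 h against 6 h was 0.0877 and 0.0883. With a library left out, *CCND1* ranged from −0.484 to 0.0789 and *CCND3* from −0.544 to 0.0867 at 12 h against 0 h, *CDKN1B* from −0.12 to 0.43 at 12 h, and *CDKN1A* from −0.0057 to 0.17 at 24 h and from −0.151 to 0.0255 at 48 h. At 48 h against 0 h *CCND1* ranged from −0.0271 to 0.13, *CCND3* from −0.36 to 0.0053 and *CDKN1C* from −0.52 to 0.14. At 24 h against 6 h *CDKN1C* ranged from −0.26 to 0.17 and *CDKN2C* from −0.0445 to 0.0121. At 48 h against 24 h *CCND3* ranged from −0.15 to 0.22, *CCNE1* from −0.34 to 0.27 and *CDKN1B* from −0.0622 to 0.0167.

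Replicate numbers showed little sign of marking pairs. Over 10 pairs of times, the correlation of replicate differences ran from −0.04 to 0.10, and 1 was over 0.1. Low correlations cannot exclude a shared culture or batch. The library names end in C or D at every time, in the order of the replicate numbers. The replicate block changed the count of members only at 12 h against 0 h.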
